A study of Mus musculus with 12 samples.

Results

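Linoleic acid (LA) is the fatty acid from which gut lactic acid bacteria make HYA (10-hydroxy-*cis*-12-octadecenoic acid), and it served as the parent compound of HYA in this diet study. The comparison described here sets the liver transcriptome of 3 LA-treated mice against that of 3 control mice, which are 6 of the 12 mice of the series. All were male C57BL/6J mice that started at 5 weeks of age and stayed on their diets for 26 weeks. Control mice received a high-fat diet alone, LA-treated mice the high-fat diet with 1% LA, and HYA-treated mice the high-fat diet with 1% HYA, whereas ND-fed mice received a normal diet. LA and control mice thus shared the high-fat diet and differed in the supplement, and the comparison asks which hepatic transcripts differ with added LA on that background. Expression was given as FPKM, a level per gene length and library size, so that levels of different genes can also be set side by side.

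In the liver, dietary LA is an essential fatty acid that is lengthened and desaturated to arachidonic acid. The desaturases FADS2 and FADS1 and the elongases ELOVL5 and ELOVL2 carry out that conversion, and cyclooxygenases, lipoxygenases and cytochrome P450 enzymes turn the products into oxylipins. Polyunsaturated fatty acids (PUFAs) are also known as ligands of PPARalpha, the nuclear receptor that drives fatty acid oxidation genes, and as repressors of SREBP-1c, the transcription factor that drives lipogenic genes. SREBP-2 drives cholesterol synthesis genes, together with NF-Y, which binds CCAAT boxes.

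Promoters are shown for 4 genes of 2 lists, since the sterol genes leaned lower in LA-treated mice and the clock genes varied widely from mouse to mouse. They are *Msmo1* and *Idi1*, enzymes of cholesterol synthesis, and *Per1* and *Ciart*, repressors of the circadian clock. Each stretch is the 250 bases before a RefSeq transcription start on GRCm38.p6, written 5′ to 3′ along the gene. Capitals mark CCAAT on either strand (CCAAT or ATTGG) and the E-box CACGTG, the letters bound by the clock activators CLOCK and BMAL1. The start of *Per1* shown is the more upstream of its starts in the table.
Msmo1 (chr8:64733579-64733828, minus strand): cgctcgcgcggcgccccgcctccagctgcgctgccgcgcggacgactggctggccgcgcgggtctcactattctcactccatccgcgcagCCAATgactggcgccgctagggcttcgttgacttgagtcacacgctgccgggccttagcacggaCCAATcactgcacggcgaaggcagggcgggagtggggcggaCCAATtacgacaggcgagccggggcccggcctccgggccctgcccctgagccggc
Idi1 (chr13:8885356-8885605, plus strand): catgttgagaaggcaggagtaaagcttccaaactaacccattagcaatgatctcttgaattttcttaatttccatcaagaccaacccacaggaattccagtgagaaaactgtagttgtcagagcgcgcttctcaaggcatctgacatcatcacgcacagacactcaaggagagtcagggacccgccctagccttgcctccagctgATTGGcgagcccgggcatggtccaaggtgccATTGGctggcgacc
Per1 (chr11:69098699-69098948, plus strand): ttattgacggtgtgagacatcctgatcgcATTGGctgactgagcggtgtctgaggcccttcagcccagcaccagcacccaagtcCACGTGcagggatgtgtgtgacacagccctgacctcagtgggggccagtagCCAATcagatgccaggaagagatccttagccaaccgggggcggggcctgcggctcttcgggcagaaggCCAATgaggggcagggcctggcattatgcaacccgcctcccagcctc
Ciart (chr3:95882229-95882478, minus strand): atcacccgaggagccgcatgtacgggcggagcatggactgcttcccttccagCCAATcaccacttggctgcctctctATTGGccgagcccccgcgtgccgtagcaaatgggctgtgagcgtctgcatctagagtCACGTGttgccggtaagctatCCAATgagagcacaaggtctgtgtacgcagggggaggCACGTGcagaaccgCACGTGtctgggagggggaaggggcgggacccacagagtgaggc
*Msmo1* holds 3 CCAAT boxes, *Idi1* 2, *Per1* 3 and *Ciart* 3, and the E-box occurs 1 time in *Per1* and 3 times in *Ciart*. Of the 24 genes of cholesterol synthesis and uptake, 16 had entries, with 19 promoters in all, and 15 of these (78.9%) hold a CCAAT box, against 33.8% of all 32851 promoters in the table. The letters TCACNCCAC, like the sterol response element that SREBP-2 binds, were searched on both strands and found in 1 of the 19 (5.26%), against 1.05% of all. Among the PUFA conversion genes described below, 9 of 22 promoters (40.9%) hold a CCAAT box. For the clock genes, 6 of 22 promoters (27.3%) hold the E-box, against 6.02% of all. Such matches describe the letters only.

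Depth was similar in both groups, with 19558364 to 20669092 fragments on genes in control mice and 20267932 to 20950700 in LA-treated mice, so that 3 fragments on a gene of 2 kb amount to at most 0.0724 FPKM. This covers counting error only. Summed markers of hepatocytes lay at 30038 to 35046 FPKM in control mice and 33004 to 34079 FPKM in LA-treated mice, those of Kupffer cells at 367 to 372 and 353 to 371 FPKM, those of sinusoidal endothelium at 101 to 102 and 96.5 to 100.2 FPKM, and those of stellate cells and portal fibroblasts at 117 to 145 and 128 to 157 FPKM. Markers of erythroid cells lay at 337 to 556 and 330 to 585 FPKM. Summed adipocyte markers were at 2.31 to 4.14 FPKM in control mice and at 7.35, 3.02 and 3.27 FPKM in LA-treated mice. Most of the high value of LA-treated mouse 1 is *Cfd*, at 2.07, 2.03 and 0.785 FPKM in control and 5.44, 1.32 and 1.90 FPKM in LA-treated mice. The defining adipocyte genes *Adipoq*, *Lep* and *Retn* were at 0 in every control mouse and at most 0.034 FPKM in LA-treated mice. In bulk tissue, fewer cells of a type and less RNA per cell cannot be told apart.

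Over the whole transcriptome, no gene differed between LA-treated and control mice at the thresholds used, which asked for an adjusted p under 0.05 and a log2 fold change of more than 1 in size. Of the 11083 genes tested, 0 were called (0%), and the adjusted p alone also gave 0. The lowest adjusted p was 0.341, for *Nutf2*. An unadjusted p under 0.05 was found for 294 genes (2.65%), 144 higher (1.3%) and 150 lower (1.35%) in LA-treated mice. The share of 2.65% is below the share of 0.05 expected where no gene differs. Without control mouse 3 the count of 294 became 672, still with 0 genes called. The log2 fold change of LA over control had a median of 0.00, with 1st and 99th percentiles of −0.37 and 0.38, and it exceeded 0.5 in size in 107 genes and 1 in 9 genes.

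The intervals show how large a difference these data leave room for. For 10778 genes (97.2%) the 95% confidence interval of the log2 fold change lay entirely within a 2-fold change in either direction. These fold changes are of log2(FPKM + 1), where the added 1 shrinks differences and intervals of genes at low levels. For such genes, here and in the lists below, the interval does not bound the fold change of the FPKM itself. The count was 10506 with 0.1 added instead, and 10472 with voom, a fit to fragment counts. Half-widths of the interval had a median of 0.20 and ran from 0.12 at the 5th percentile to 0.55 at the 95th. Mice of the same group spread by a median SD of 0.11 (control) and 0.09 (LA) on the log2 scale. In the plot of all genes, those with wider intervals lie mostly at low levels.

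**Figure D1:**
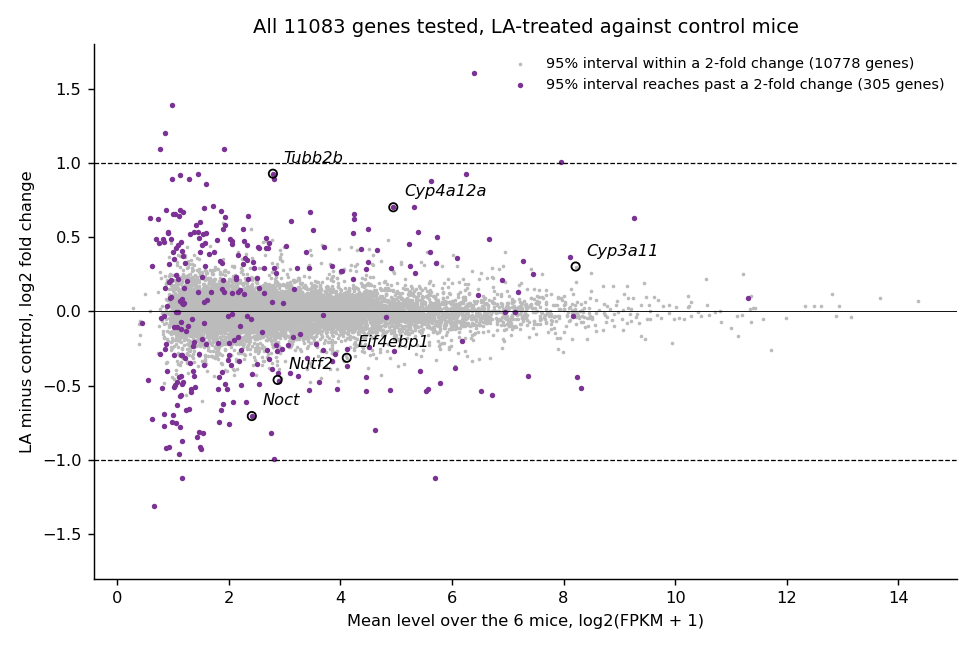
Log2 fold change of LA over control (y axis) against the mean log2(FPKM + 1) of the 6 mice (x axis) for the 11083 genes tested, with dashed lines at a 2-fold change. The 10778 grey genes have a 95% interval within a 2-fold change and the 305 purple genes do not, and 6 of the genes named by rank are circled.

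The 9 genes past a 2-fold difference were named after their values were seen. They are 3 major urinary protein genes or pseudogenes (*Mup18*, *Mup8*, *Mup-ps19*), 5 genes of only 55 to 79 bases (*Mir7666*, *Mir5100*, *Gm27616*, *Mir7001* and *mt-Ts1*) and *Gm10076*. *Mup18* was at 58.6, 165 and 10.3 FPKM in control mice and 235, 95.6 and 136 FPKM in LA-treated mice. These groups overlap, and *Mup* genes are near-identical, so that the division of reads among them is uncertain.

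Ranges of the 3 LA-treated and the 3 control mice did not overlap for 837 genes (7.55%), 437 higher (3.94%) and 400 lower (3.61%) in LA-treated mice. The 22 genes named by rank come from these, and none of them passed the adjusted test. Because the rule asks for ranges that do not overlap, that separation is not a finding. *Nutf2* had an adjusted p of 0.341 and the others had 0.999 by limma.

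Cytochrome P450 genes stand among the higher ones. *Cyp3a11* (chromosome 5, 145854426 to 145879964), a major drug-metabolizing P450 of mouse liver, was at 279, 246 and 277 FPKM in control mice and at 353, 316 and 320 FPKM in LA-treated mice. The log2 fold change was 0.30 (95% interval 0.13 to 0.47). *Cyp2u1* (chromosome 3, 131288441 to 131303227), a fatty acid hydroxylase, was at 5.95, 6.22 and 4.93 FPKM in control and 7.44, 8.43 and 7.39 FPKM in LA-treated mice, a log2 fold change of 0.39 (0.19 to 0.59). It overlaps 4930534D22Rik on the opposite strand, and the strand setting of the counting is not given. Of the other genes named by rank, *Tbcel*, *Tut7*, *Noct* and *Zbed3* overlap other genes too, on the same or the opposite strand. *Cyp4a12a* (chromosome 4, 115299046 to 115332815), an arachidonic acid hydroxylase of male liver, was at 17.6, 25.9 and 27.5 FPKM in control and 44.4, 34.2 and 37.3 FPKM in LA-treated mice, a log2 fold change of 0.70 (0.24 to 1.16). *Cyp3a11* and *Cyp4a12a* have close relatives with which reads may be shared.

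The β-tubulin gene *Tubb2b* (chromosome 13, 34126748 to 34130466) had the largest difference by rank, with 5.90, 2.65 and 4.04 FPKM in control and 11.0, 6.36 and 8.90 FPKM in LA-treated mice. Its log2 fold change was 0.93 (0.34 to 1.51), and the lowest LA-treated mouse lay just above the highest control mouse. *Hspd1-ps3*, a pseudogene of the chaperonin gene *Hspd1*, was at 3.78, 5.11 and 3.70 FPKM in control and 16.9, 6.64 and 5.42 FPKM in LA-treated mice, so that its log2 fold change of 0.89 owes most to LA-treated mouse 1. Without that mouse it was 0.44. The pseudogene *Mup-ps7* differed by 0.58. Smaller differences were those of *Atp8b1*, a phospholipid flippase of the canalicular membrane (0.20), *Tut7*, a uridylyltransferase acting on RNA ends (0.18), and *Tbcel* (0.22), *Btbd1* (0.17) and *Utp14a* (0.20).

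Among the lower genes, *Nutf2* (chromosome 8, 105860580 to 105879330), which carries Ran into the nucleus, was at 6.95, 7.57 and 8.40 FPKM in control and 5.19, 5.58 and 5.03 FPKM in LA-treated mice. Its log2 fold change was −0.46 (−0.61 to −0.31), with an unadjusted p of 3.08e-05. *Eif4ebp1* (chromosome 8, 27260329 to 27276674), the repressor of cap-dependent translation that mTORC1 phosphorylates, was at 19.6, 18.3 and 17.2 FPKM in control and 14.8, 13.8 and 15.2 FPKM in LA-treated mice. Here the log2 fold change was −0.31 (−0.45 to −0.17). The others by lowest p were *Stmn1*, a microtubule-destabilizing protein of dividing cells (−0.43), *Cdkn2c*, an inhibitor of CDK4 and CDK6 (−0.35), *Zbed3* (−0.35), *Banf1*, a chromatin protein of the nuclear envelope (−0.27), the splicing-associated *Wbp11* (−0.23) and *Osgep*, of a tRNA-modifying complex (−0.22).

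Larger but wider differences were those of *Noct*, a rhythmic NADP(H) phosphatase (−0.70, −1.26 to −0.15), *Angptl4*, an inhibitor of lipoprotein lipase and PPAR target (−0.54, −1.45 to 0.38), and the insulin receptor substrate *Irs2* (−0.49, −1.19 to 0.21). *Angptl4* was at 21.4, 34.2 and 22.5 FPKM in control and 17.0, 15.9 and 18.9 FPKM in LA-treated mice, and control mouse 2 stands above the others. *Irs2* was at 3.59, 2.89 and 4.27 FPKM in control and 1.94, 2.04 and 2.82 FPKM in LA-treated mice, and here the groups only just separate. The spread behind these intervals was estimated over all 12 mice. For *Angptl4* the SD was 13.4 FPKM in ND-fed, 7.69 in HYA-treated, 7.09 in control and 1.54 in LA-treated mice. For *Irs2* the SD was 2.35 FPKM in ND-fed, 0.34 in HYA-treated, 0.69 in control and 0.49 in LA-treated mice. The intervals of both genes thus also carry the spread of mice outside the comparison. The plot of genes named by rank shows the 6 mice of each gene.

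**Figure D2:**
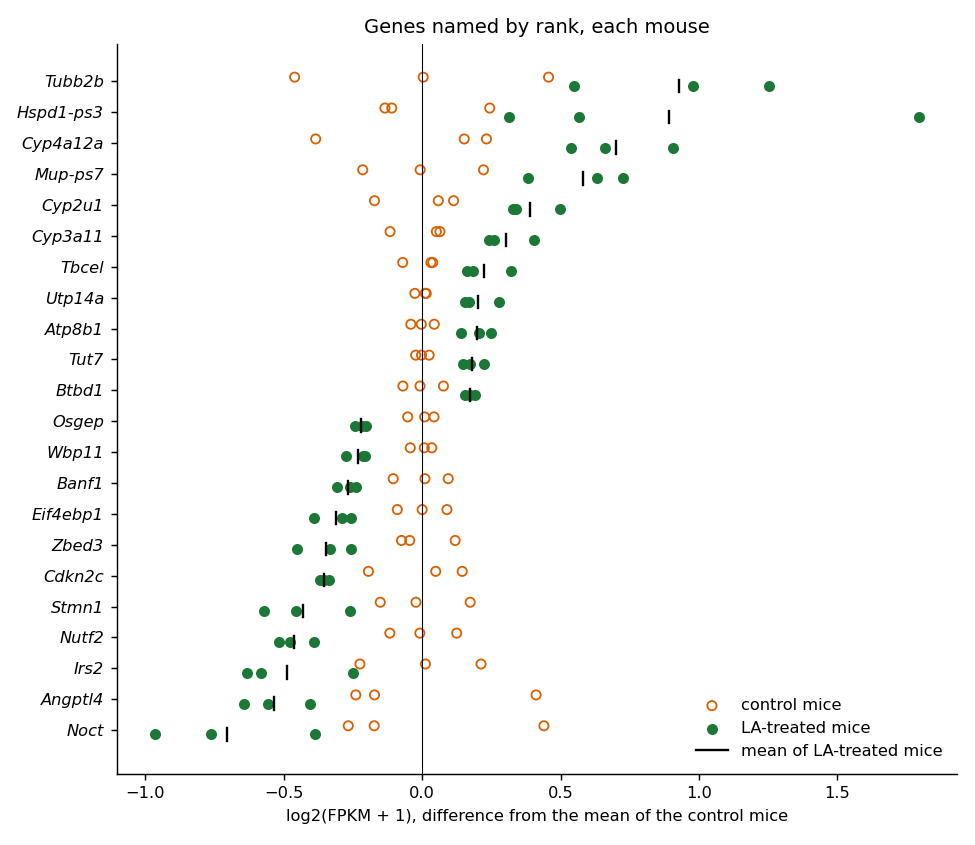
Log2(FPKM + 1) of each mouse as the difference from the mean of the control mice (x axis) for the 22 genes named by rank (y axis), with open circles for control mice, filled circles for LA-treated mice and a bar at the mean of the LA-treated mice. The means run from 0.93 for *Tubb2b* to −0.70 for *Noct*, and most lie within 0.5 of 0.

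The genes that act on LA itself showed no called difference. Of the 22 genes of PUFA conversion, 17 passed the filter, 6 were higher and 11 lower (64.7%, against 48.5% of all genes), with a median log2 fold change of −0.01. *Fads2*, the Δ6-desaturase that takes the committed step from LA, was at 1118, 1284 and 839 FPKM in control mice and at 831, 862 and 1074 FPKM in LA-treated mice. The groups overlap, and the log2 fold change was −0.22 (−0.59 to 0.15). *Fads1*, the Δ5-desaturase, was at 396, 447 and 356 FPKM in control and 334, 366 and 393 FPKM in LA-treated mice (−0.13, −0.32 to 0.06). In both genes control mouse 3 was the lowest control mouse and LA-treated mouse 3 the highest LA-treated mouse.

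The elongases of long-chain PUFAs differed little in the mean. *Elovl5* was at 512, 523 and 620 FPKM in control and 646, 612 and 504 FPKM in LA-treated mice (0.09, −0.19 to 0.36), and *Elovl2* differed by −0.02 (−0.20 to 0.17). *Tecr*, the reductase that completes each elongation cycle, was the member with an unadjusted p under 0.05. It was at 78.6, 84.4 and 85.6 FPKM in control and 78.3, 72.0 and 76.8 FPKM in LA-treated mice (−0.13, −0.25 to −0.01), with ranges that did not overlap by a small margin. Of the other steps of the cycle, *Hsd17b12* differed by −0.00, *Hacd1* by −0.04, *Hacd2* by 0.04 and *Hacd3* by −0.14. *Elovl1* (−0.01), *Elovl6* (0.07), *Fads3* (−0.01) and *Fads6* (0.00) lay near 0 as well. *Elovl3*, an elongase of saturated and monounsaturated fatty acids that is high in male liver, was the exception in width, at 14.6, 28.0 and 105 FPKM in control and 83.1, 91.3 and 37.6 FPKM in LA-treated mice (0.88, −0.55 to 2.31).

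Acyltransferases that place PUFAs into phospholipids differed little in the mean too, with −0.04 (−0.22 to 0.14) for *Lpcat3*, −0.02 (−0.13 to 0.09) for *Agpat3* and 0.06 (−0.07 to 0.20) for *Mboat7*. *Elovl4*, *Elovl7*, *Hacd4*, *Mboat1* and *Mboat2* did not pass the filter, and the highest of their values in the 6 mice was 1.21 FPKM, for *Elovl7*.

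Of the 50 oxylipin enzymes in the table, 34 passed the filter, with 23 higher and 11 lower in LA-treated mice (67.6% higher, against 51.5% of all genes) and a median of 0.04. The median was below 0 without control mouse 1. Besides *Cyp4a12a*, *Alox5ap*, the 5-lipoxygenase-activating protein, had an unadjusted p under 0.05, with 2.39, 1.81 and 2.07 FPKM in control and 1.49, 1.59 and 1.45 FPKM in LA-treated mice (−0.30, −0.49 to −0.10). The ranges did not overlap. The epoxygenase gene *Cyp2c29* differed by 0.29 (−0.04 to 0.63) and *Cyp2c70*, known for muricholic acid formation, by 0.31 (−0.01 to 0.63). The lipoxygenase genes *Alox5*, *Alox12* and *Alox15* and the cyclooxygenase gene *Ptgs2* were below the filter, at no more than 0.298 FPKM in any of the 6 mice.

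Genes of fatty acid oxidation, which fatty acids act on through PPARalpha, leaned slightly lower. Of 49 tested, 11 were higher and 38 lower (77.6%, against 48.5% of all genes), with a median of −0.03, and none had an unadjusted p under 0.05. With control mouse 2 left out the median was −0.01 (22 higher and 27 lower), and with control mouse 1 left out it was −0.06. Dropping LA-treated mouse 1 gave −0.02. The widest member was *Acot3*, a peroxisomal acyl-CoA thioesterase, at 11.1, 12.9 and 3.33 FPKM in control and 2.91, 3.96 and 5.85 FPKM in LA-treated mice (−0.82, −1.92 to 0.28). Its cytosolic and mitochondrial relatives *Acot1* (−0.28) and *Acot2* (−0.39) and the carnitine acetyltransferase *Crat* (−0.15) were the other members of lowest p.

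Lipogenic genes had 15 members higher and 7 lower of 22 tested, with a median of 0.05 that was below 0 without control mouse 3. *Scd1*, the stearoyl-CoA desaturase, was at 7536, 6521 and 6613 FPKM in control and 8521, 6916 and 7012 FPKM in LA-treated mice (0.12, −0.14 to 0.37). *Fasn*, the fatty acid synthase, was at 280, 297 and 262 FPKM in control and 358, 299 and 308 FPKM in LA-treated mice (0.20, −0.22 to 0.62), and *Acaca*, which makes malonyl-CoA, differed by 0.13 (−0.08 to 0.34). In these genes LA-treated mouse 1 was the highest of the 6 mice. *Srebf1*, which encodes SREBP-1c, differed by 0.05 (−0.53 to 0.63). The NADPH-producing *G6pdx* (0.17), *Pnpla3*, a lipid-droplet protein (0.44, −0.08 to 0.97), and *Insig2* (0.49, −0.38 to 1.35) had no called difference.

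Genes of lipid uptake and storage were evenly split, with 19 higher and 19 lower of 38 tested. The triglyceride lipase *Pnpla2* was the member of lowest p, at 32.5, 30.0 and 21.9 FPKM in control and 22.5, 20.0 and 26.3 FPKM in LA-treated mice (−0.27, −0.59 to 0.05). Lipoprotein genes had 13 higher and 12 lower, with *Apob* at 0.09 (−0.03 to 0.21) and *Apoa4* at −0.26 (−0.56 to 0.04). The plot of the gene lists shows the members of each list against all genes.

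**Figure D3:**
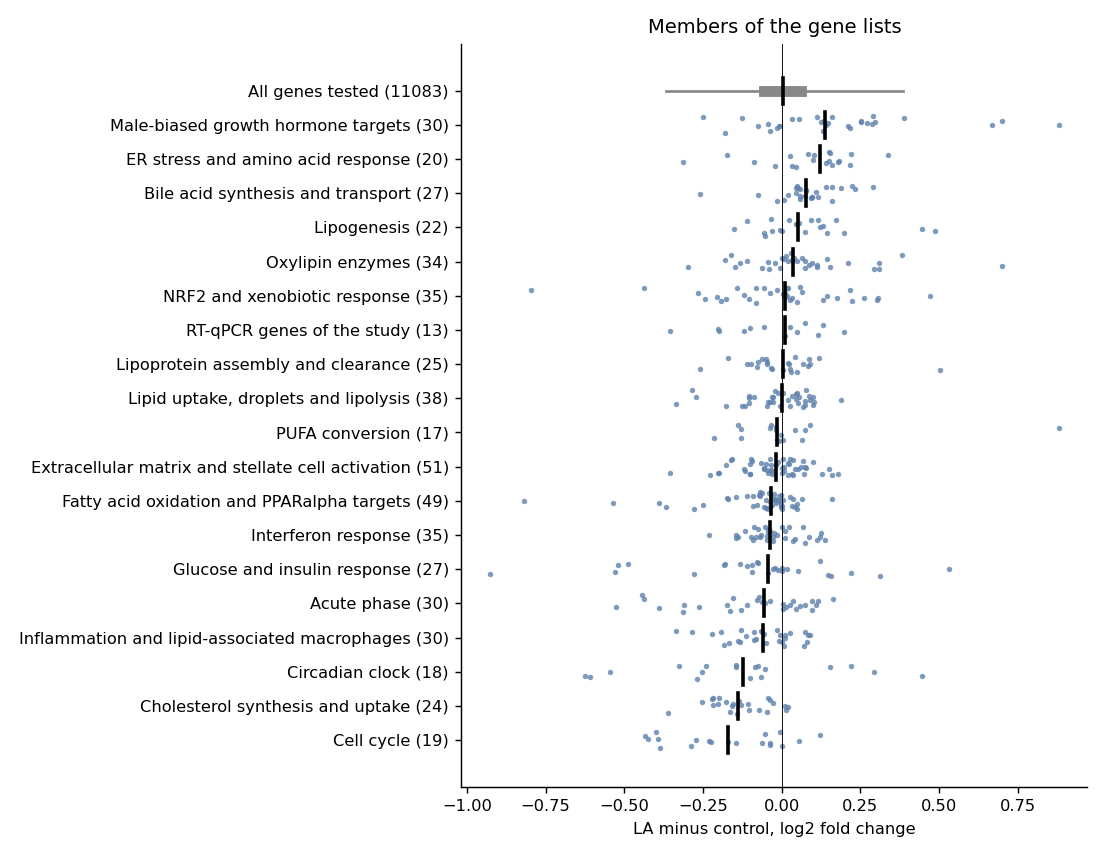
Log2 fold change of LA over control (x axis) for each tested member of the 19 gene lists (points, with the number of members in brackets) and the list median (bar). The top row gives the median, the middle 50 percent and the 1st to 99th percentile of all 11083 genes. List medians run from 0.14 for male-biased growth hormone targets to −0.17 for cell cycle genes.

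Genes of cholesterol synthesis and uptake leaned lower in LA-treated mice. Of 24 genes, 21 were lower and 3 higher in LA-treated mice (87.5% lower, against 48.5% of all genes), with a median of −0.14. The median stayed below 0 without any one mouse, between −0.18 (LA-treated mouse 3 left out) and −0.09 (LA-treated mouse 1 left out), and none of the 24 was called. *Fdps*, which makes farnesyl diphosphate, was at 3.29, 2.93 and 3.25 FPKM in control and 2.43, 2.50 and 2.53 FPKM in LA-treated mice, a log2 fold change of −0.25 (−0.41 to −0.09) with an unadjusted p of 0.0056. Its ranges did not overlap. The squalene epoxidase gene *Sqle* was at 14.8, 10.9 and 13.5 FPKM in control and 10.6, 7.76 and 11.8 FPKM in LA-treated mice (−0.36, −0.77 to 0.05).

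Several sterol genes had LA-treated mouse 3 at the level of the control mice. *Fdft1*, squalene synthase, was at 30.1, 33.2 and 28.0 FPKM in control and 23.4, 23.4 and 31.9 FPKM in LA-treated mice, and *Nsdhl*, a sterol dehydrogenase, at 22.8, 21.2 and 23.6 against 18.5, 17.0 and 22.4 FPKM. The genes whose promoters are printed above, which lie outside the rule on naming, showed this too. *Msmo1* was at 20.3, 20.7 and 17.7 FPKM in control and 13.6, 15.8 and 22.0 FPKM in LA-treated mice, and *Idi1* at 15.9, 15.5 and 17.3 against 12.2, 12.6 and 17.8 FPKM. All 24 genes had an interval within a 2-fold change.

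Bile acid synthesis and transport leaned the other way. Of 27 tested genes, 24 were higher and 3 lower (88.9% higher, against 51.5% of all genes), with a median of 0.08. Without control mouse 1 the split was 16 higher and 11 lower and the median 0.02. *Baat*, which conjugates bile acids to taurine and glycine, was at 87.7, 96.5 and 109 FPKM in control and 115, 119 and 108 FPKM in LA-treated mice (0.22, 0.05 to 0.40), an overlap of the highest control with the lowest LA-treated mouse. The bile salt export pump *Abcb11* differed by 0.23 (−0.06 to 0.52), the side-chain oxidase *Acox2* by 0.19 (−0.04 to 0.42) and the reductase *Akr1d1* by 0.16 (−0.17 to 0.48). Named outside the rule, *Cyp7a1*, the rate-limiting enzyme of bile acid synthesis, was at 18.5, 17.8 and 6.82 FPKM in control and 7.53, 9.17 and 18.3 FPKM in LA-treated mice (−0.26, −1.13 to 0.61). Both groups hold high and low mice for this gene.

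**Figure D4:**
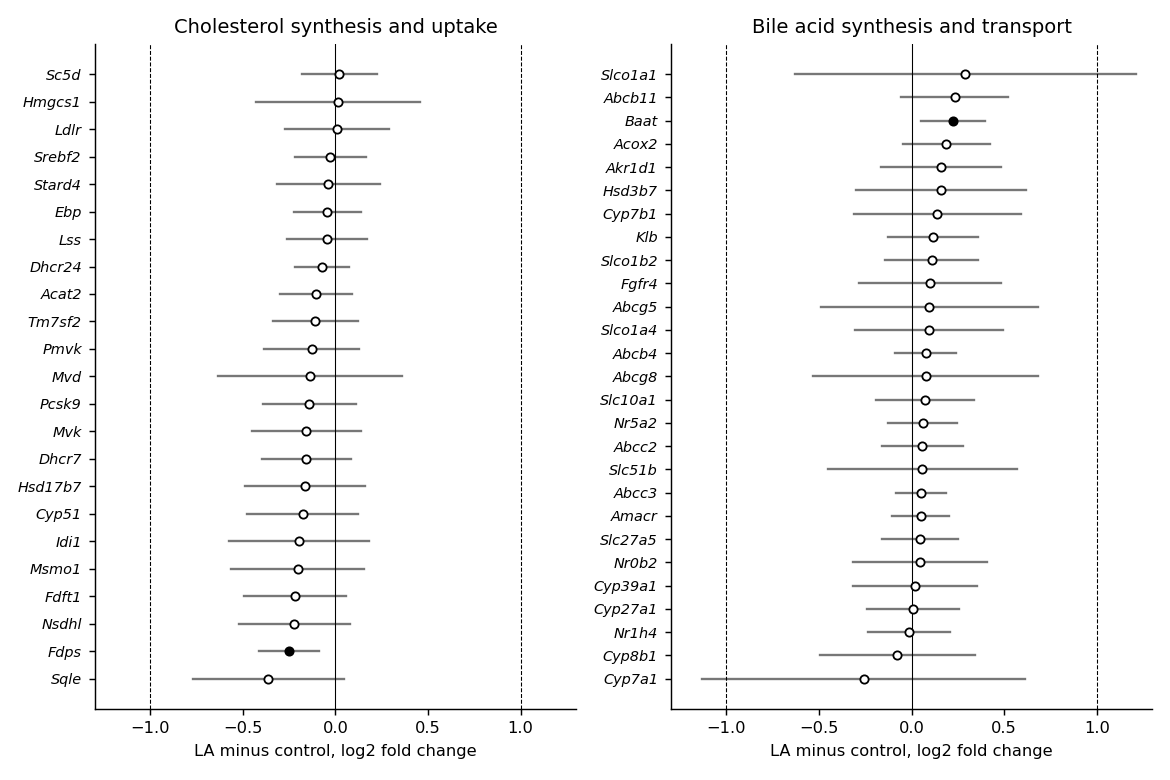
Log2 fold change of LA over control (x axis) with its 95% interval (line) for genes of cholesterol synthesis and uptake (left, 1 of the 24 not shown) and the 27 tested genes of bile acid synthesis and transport (right), with filled points at an unadjusted p under 0.05 and dashed lines at a 2-fold change. Filled points are *Fdps* and *Baat*, and the intervals of *Slco1a1* and *Cyp7a1* reach past a 2-fold change.

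Fibrosis and inflammation genes, which the study assayed in liver by RT-qPCR along with steatosis genes, had no called member. Those liver assays compared HYA-treated with control mice and did not include LA-treated mice. Of the 62 genes of the extracellular matrix list in the table, 51 passed the filter, 23 higher and 28 lower, with a median of −0.02, and all 51 intervals lay within a 2-fold change. *Col1a1* was at 13.2, 7.72 and 11.1 FPKM in control and 11.2, 8.04 and 7.98 FPKM in LA-treated mice (−0.20, −0.67 to 0.27). *Col1a2* differed by −0.12 (−0.43 to 0.19), *Col3a1* by −0.10 (−0.45 to 0.25), and *Acta2*, a marker of activated stellate cells, by 0.08 (−0.35 to 0.50). The profibrotic cytokine gene *Tgfb1* was at 5.00, 4.16 and 3.95 FPKM in control and 3.53, 3.49 and 3.96 FPKM in LA-treated mice (−0.20, −0.44 to 0.03), and the collagenase inhibitor *Timp1* differed by −0.35 (−0.97 to 0.26). The metalloproteinase gene *Mmp19* (0.13) and the matrix gene *Efemp1* (0.15) were slightly higher.

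The inflammation and lipid-associated macrophage list had 10 higher and 20 lower of 30 tested (66.7% lower, against 48.5% of all genes), with a median of −0.06 that was 0.01 without control mouse 3. *Itgax*, which encodes CD11c, was at 2.31, 1.63 and 2.30 FPKM in control and 1.76, 1.20 and 1.62 FPKM in LA-treated mice (−0.29, −0.57 to 0.00). *Gpnmb*, a gene of lipid-laden macrophages, differed by −0.33 (−0.70 to 0.03), *Vcam1* by −0.22 (−0.48 to 0.03) and the lysosomal protease *Ctsb* by −0.08 (−0.20 to 0.04). *Ccl2* (−0.05, −0.71 to 0.61), *Il1b* (0.03, −0.45 to 0.50) and *Cd86* (0.01, −0.22 to 0.24) showed no lean. *Tnf* and *Il6* were below the filter, at most 0.677 and 0.0596 FPKM. Of the 13 RT-qPCR genes tested, 7 were higher and 6 lower, and all 13 intervals lay within a 2-fold change.

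Cell cycle genes leaned lower in LA-treated mice. Of 19 tested, 16 were lower and 3 higher (84.2% lower), with a median of −0.17, and 4 had an unadjusted p under 0.05 against 1.35% of all genes on the lower side. The 13 members below the filter are not counted there. *Mcm4*, a subunit of the replicative helicase, was at 4.26, 4.29 and 3.01 FPKM in control and 2.14, 2.73 and 3.25 FPKM in LA-treated mice (−0.39, −0.69 to −0.09). The ribonucleotide reductase subunit *Rrm2* was at 3.31, 2.87 and 2.80 FPKM in control and 2.18, 2.22 and 2.40 FPKM in LA-treated mice (−0.29, −0.51 to −0.07), and it is the member whose ranges did not overlap. *Rrm1* differed by −0.23 (−0.45 to −0.01) and the mitotic activator *Cdc20* by −0.40 (−0.76 to −0.04). The sum of the list was 125 to 132 FPKM in control and 109 to 117 FPKM in LA-treated mice, and the part of other cell types in that difference was not tested.

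Male-biased growth hormone targets, genes that pulsatile growth hormone keeps high in male liver, had 21 higher and 9 lower of 30 (70% higher, against 51.5% of all genes) and a median of 0.14, which was 0.01 (16 higher and 14 lower) without control mouse 1 and was 0.23 without control mouse 2. The hydroxylase gene *Cyp2d9* was at 152, 145 and 167 FPKM in control and 209, 167 and 191 FPKM in LA-treated mice (0.29, 0.06 to 0.51), and *Mup21* differed by 0.27 (−0.04 to 0.58). *Cyp2u1* and *Cyp4a12a* are members too. For 9 of the 30 genes the interval reached past a 2-fold change.

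The xenobiotic response list had 20 higher and 15 lower of 35, with *Aox3*, an aldehyde oxidase, at 50.6, 60.4 and 56.3 FPKM in control and 63.0, 67.7 and 63.8 FPKM in LA-treated mice (0.22, 0.04 to 0.39). *Cyp2b13* was at 5.11, 4.42 and 3.32 FPKM in control and 5.25, 6.40 and 7.20 FPKM in LA-treated mice (0.47, 0.02 to 0.91). *Fmo2* differed by −0.27. The ER stress list had 16 higher and 4 lower of 20, and its median of 0.12 was 0.00 without control mouse 1, with the sensor gene *Ern1* at 0.16 (0.00 to 0.32), *Atf4* at 0.15, *Xbp1* at 0.18 and *Herpud1* at −0.31. Acute phase genes had 13 higher and 17 lower, led by *Orm2* (−0.53, −1.03 to −0.02) and *Orm1* (−0.16, −0.32 to −0.00), with *Mt1* at −0.39 and *Cebpd* at −0.31. Interferon genes had 12 higher and 23 lower of 35, all within a 2-fold change, with *Irf7* at −0.23, *Psmb8* at −0.14, *Psmb9* at −0.14 and *Xaf1* at 0.11. In the glucose and insulin list, 9 were higher and 18 lower of 27, with the glucokinase regulator *Gckr* at 0.16, the glycogen phosphorylase *Pygl* at 0.15 and *Ppp1r3b* at 0.31.

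Clock genes varied widely between mice of the same group. Of 18 tested, 4 were higher and 14 lower, with a median of −0.12 (0.02 without control mouse 2), and 9 of the 18 intervals reached past a 2-fold change, against 305 of all 11083 genes. The output gene *Dbp*, named outside the rule like *Ciart*, *Arntl*, *Nfil3*, *Tef* and *Per3*, was at 50.0, 53.5 and 4.53 FPKM in control and at 9.45, 20.0 and 41.4 FPKM in LA-treated mice. Control mouse 3 was thus low and LA-treated mouse 3 high. *Ciart* was at 2.53, 5.26 and 0.256 FPKM in control and 0.353, 0.954 and 2.38 FPKM in LA-treated mice, and *Per1* at 4.14, 8.21 and 2.04 against 1.98, 1.59 and 4.26 FPKM. *Arntl*, which encodes BMAL1, ran the other way, at 0.21, 0.174 and 3.23 FPKM in control and 2.78, 2.06 and 0.316 FPKM in LA-treated mice.

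*Clock* was at 2.71, 2.72 and 4.32 FPKM in control and 4.78, 4.71 and 3.08 FPKM in LA-treated mice (0.29, −0.14 to 0.72), *Cry2* differed by −0.10 (−0.31 to 0.11) and *Bhlhe40* by 0.22 (−0.33 to 0.77). Over the 12 mice, 85.5% of the variance of the 18 clock genes lay on 1 principal component. The pattern of high control mice 1 and 2 and low control mouse 3 also appears in *Acot3*, *Cyp7a1* and *Fads2* above, and the part of the clock in those values was not tested. With the level of *Dbp* of each mouse as a covariate, chosen after seeing the data, 405 genes had an unadjusted p under 0.05 and 0 were called.

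**Figure D5:**
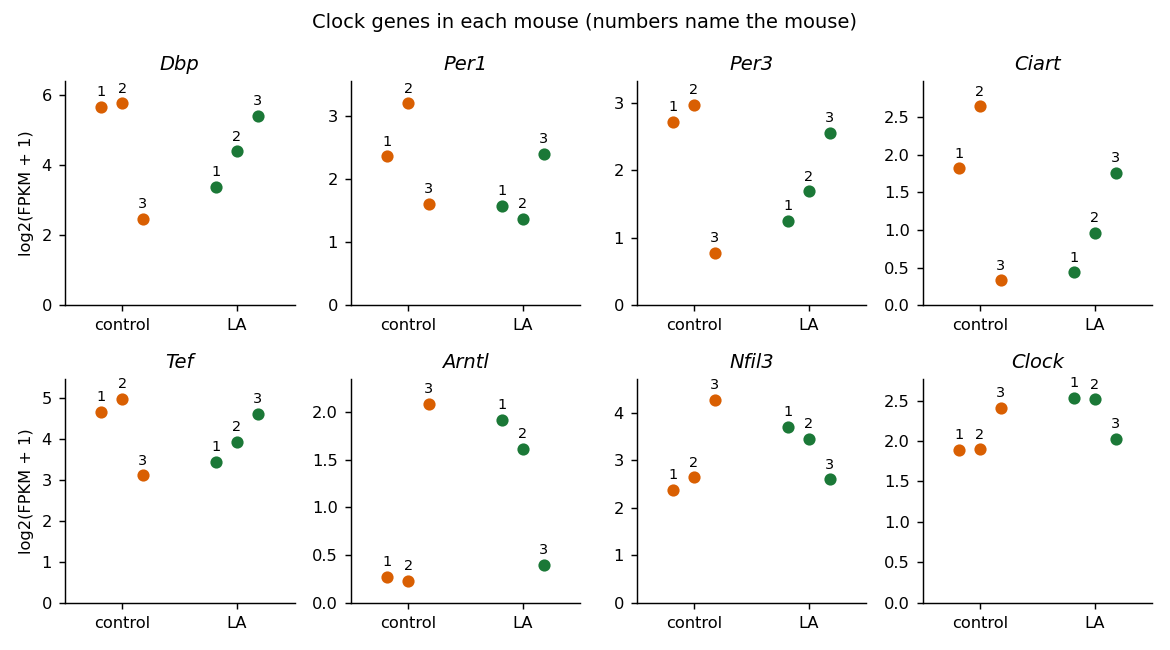
Log2(FPKM + 1) (y axis) of 8 clock genes in the 3 control mice (orange) and the 3 LA-treated mice (green), with the mouse number above each point. Control mouse 3 is lowest for *Dbp*, *Per3*, *Ciart* and *Tef* and highest for *Arntl* and *Nfil3*, and the groups overlap in every panel.

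HYA differs from LA by a hydroxyl group in place of a double bond, and both were given at 1% for the same 26 weeks, so the supplements were compared directly. Over all genes, 12 were called between HYA-treated and LA-treated mice (0.108%), and 54 (0.487%) passed the adjusted p alone. Of the 22 genes named by rank, 0 were called, and the lowest adjusted p was 0.0597. That value belongs to *Cyp3a11*, for which HYA minus LA was −0.38 (−0.55 to −0.22). For *Cyp2u1* the difference between the supplements was −0.00 (−0.20 to 0.20). For *Tubb2b* HYA minus LA was −0.88 (−1.46 to −0.29) with an adjusted p of 0.127, for *Cyp4a12a* 0.65 (0.19 to 1.11) with 0.143, for *Nutf2* 0.20 (0.05 to 0.34) with 0.168 and for *Eif4ebp1* 0.22 (0.08 to 0.36) with 0.116. These comparisons share the LA-treated mice with those against control. The genes were chosen for LA values apart from those of control mice, which by itself favours HYA minus LA of the opposite sign. Some of the 22 genes differed likewise between HYA-treated mice and the same control mice, and others did not. HYA minus control was 0.39 for *Cyp2u1*, −0.75 for *Stmn1*, −0.59 for *Cdkn2c* and 1.35 for *Cyp4a12a*. It was 0.05 for *Tubb2b* and −0.08 for *Cyp3a11*.

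In the list genes, *Cyp2b13*, a female-predominant P450, was called between the supplements, at 1.73, 1.06 and 2.85 FPKM in HYA-treated mice, with HYA minus LA at −1.38 (adjusted p = 0.0317). The genes that follow were chosen after their values were seen. *Slc10a1*, the bile acid uptake transporter, was at 131, 187 and 145 FPKM in control, 148, 154 and 182 FPKM in LA-treated and 248, 269 and 282 FPKM in HYA-treated mice, with HYA minus LA at 0.73 (adjusted p = 0.0365) and LA minus control at 0.07. *Gstm3*, a glutathione transferase, was at 195, 159 and 218 FPKM in control, 158, 192 and 188 FPKM in LA-treated and 102, 87.8 and 84.0 FPKM in HYA-treated mice, with HYA minus LA at −0.96 (adjusted p = 0.0183) and LA minus control at −0.08.

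For the collagen genes, HYA minus LA was −0.92 (−1.39 to −0.46) for *Col1a1*, −0.61 (−0.92 to −0.29) for *Col1a2* and −0.73 (−1.08 to −0.38) for *Col3a1*, with adjusted p of 0.0715, 0.0726 and 0.0663, so that none passed. In the extracellular matrix list, 49 of 51 genes had a lower mean with HYA than with LA, against 45.9% of all genes, with a median of −0.37 (0.01 over all genes), whereas LA minus control had its median at −0.02. Other lists leaned between the supplements as well. None of the 24 cholesterol genes and none of the 11 hepatocyte markers was lower with HYA than with LA (medians 0.28 and 0.32). The part of cell types in the matrix values was not tested. For the PUFA conversion genes the intervals of HYA minus LA were also mostly narrow, with *Fads1* at 0.10 (−0.09 to 0.29), *Fads2* at 0.18 (−0.19 to 0.55) and *Elovl2* at 0.30 (0.12 to 0.49, adjusted p = 0.107). None of the 17 passed.

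Genes that respond to the diet were taken from HYA-treated against ND-fed mice, a contrast without the control and LA-treated mice, although all 12 mice shared the filter and the estimate of the spread. The numbers of genes chosen therefore move slightly when a control or LA-treated mouse is left out. They moved more with the processing. With a pseudocount of 0.1, 237 genes were called higher and 88 lower, and with TPM 238 and 64. Of the 141 genes called higher in HYA-treated than in ND-fed mice, 93 (66%, against 48.5% of all genes) were lower in LA-treated than in control mice. Their median LA minus control was −0.09. Leaving out control mouse 1 gave a median of −0.03, leaving out LA-treated mouse 2 gave −0.04, and leaving out control mouse 3 gave −0.13. Of the 68 genes called lower, 42 (61.8%, against 51.5% of all genes) were higher in LA-treated than in control mice, with a median of 0.09. Here the median was −0.03 when control mouse 1 was left out, 0.02 when LA-treated mouse 2 was, and 0.18 when control mouse 2 was. None of them was called between LA-treated and control mice. Their medians for control minus ND were 1.69 and −1.92. The same ND-fed mice entered the choice, so the signs of these medians were favoured in advance.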

How the data were processed

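Liver RNA of 12 male mice, 3 in each of 4 groups, was analysed. The authors deposited 1 table of FPKM (fragments corrected for gene length and library size), with 1 column per mouse and nothing pooled. The submitters' processing notes name fastp, HISAT2 2.0.5, featureCounts 1.5.0-p3 and GRCm38, with no role or order. The annotation release, the strand setting and how multiply matching reads were counted are not given in the sources used here. The paper gives the unit as TPM, but column totals ranged from 342146 to 429286, whereas TPM gives equal totals. Multiplied by gene length, 100% of the values were whole multiples of the step of their column (tolerance 0.05 of a step), and these multiples were taken as fragments. Totals were 17169064 to 25220880 fragments per mouse. Gene coordinates equalled those of GENCODE M21 on GRCm38 for 98.33% of the shared identifiers.

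Genes averaging 1 FPKM or more across all 12 mice (11083 of 54532) were tested on log2(FPKM + 1), which understates the fold change of low genes, with limma 3.58.1 in R 4.3.3. All 12 mice entered 1 linear model over the groups, with empirical Bayes moderation and a mean-variance trend. Tests were two-sided, with Benjamini-Hochberg adjustment over all genes tested, and a gene was called where the adjusted p was under 0.05 and the log2 fold change exceeded 1 in size. Intervals are 95% confidence intervals of the log2 fold change. The method was tested on simulated data.

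Genes were named by rank among those of at least 200 bases with no clone name and with ranges that did not overlap, as the 8 higher and 8 lower genes of lowest p and the 4 higher and 4 lower of largest fold change. To these were added all genes of the PUFA conversion and RT-qPCR lists and at most the 4 members of lowest p from each other list. Genes named outside this rule are marked. The comparison, the members and the lists were chosen with earlier results of these data known. Lists are described by counts and medians, with no set test. Alternatives tried were a pseudocount of 0.1, no filter, TPM, median-ratio size factors, a fit of the 6 mice alone, a replicate block, voom on the recovered fragments and leaving out each mouse, and, added after seeing the data, the level of Dbp as a covariate. The level of 1 gene is not reported here.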

Additional observations from a re-analysis of the deposited data

How the results depend on the processing

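No gene was called under any of the 14 alternatives, and the 22 genes named by rank kept their direction in all of them. The adjusted p without a fold threshold gave 1 gene with no filter on low values (26045 genes tested), the pseudogene Fabp3-ps1, with 1 fragment in each control mouse, 0 in each LA-treated mouse and an adjusted p of 0.000992. With no filter, 986 genes had an unadjusted p under 0.05, 25438 had an interval within a 2-fold change and 1672 had ranges that did not overlap, since more genes were tested. The genes added average under 1 FPKM, and on log2(FPKM + 1) such genes can hardly differ by 1, so the 25438 does not show likeness. Leaving out each mouse gave 234 to 672 genes at an unadjusted p under 0.05 and 1594 to 2600 with ranges that did not overlap, with the highest of both without control mouse 3. The latter count grows by construction with fewer mice. The cause of the rise to 672 was not tested. Without control mouse 3 the 672 genes split into 392 higher and 280 lower, against 144 and 150 with all mice. Same-numbered control and LA-treated mice had correlations of their deviations of 0.002, 0.029 and −0.40, and the other pairs ran from −0.32 to 0.30. With 3 mice a group, these values cannot show whether the numbers pair the mice. A replicate block in limma gave 309 genes at an unadjusted p under 0.05, a lowest adjusted p of 0.513 and 0 called. Other lowest adjusted p ran from 0.157 with Dbp as a covariate to 0.99993 without control mouse 2. Of the 19 list medians, 5 kept their sign under every alternative (cholesterol, bile acid, fatty acid oxidation, cell cycle and male-biased genes) and 14 changed it under at least 1. Between HYA and LA, none of the 22 genes was called under any alternative that could be run, whereas their lowest adjusted p ran from 0.0253 with voom to 0.246 without LA-treated mouse 1. Depth limits statements on genes near the floor of 3 fragments.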

Other observations

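Groups of genes below were chosen after their values were seen and are given as descriptions. Of the 77 cytosolic ribosomal protein genes, 68 were lower and 9 higher in LA-treated than in control mice, with a median log2 fold change of −0.07. Ranges did not overlap for 21 of them on the lower side (against 3.61% of all genes and 5.66% of genes of 1 to 2 kb) and for 1 on the higher side. Their summed level was 6065 to 6411 FPKM in control mice and 5793 to 6066 FPKM in LA-treated mice, so that LA-treated mouse 2 overlapped the control mice. All 77 intervals lay within a 2-fold change. Of the 13 protein genes of the mitochondrial genome, 10 were higher and 3 lower, with a median of 0.04 and a sum of 35911 to 39324 FPKM in control and 36772 to 39570 FPKM in LA-treated mice. Major urinary protein genes, which share near-identical sequence, were higher in 15 of 18 cases (83.3%, against 51.5% of all genes) with a median of 0.26, and 14 of the 18 intervals reached past a 2-fold change. Their sum was 3581, 5918 and 4579 FPKM in control and 5287, 5401 and 5409 FPKM in LA-treated mice, so that control mouse 2 lay above every LA-treated mouse.

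The share of genes with ranges that did not overlap differed with gene length, in a steady order above 1 kb but not among shorter genes. Among genes longer than 8 kb, 7.55% had ranges that did not overlap on the higher side and 1.73% on the lower side. Among genes of 1 to 2 kb these shares were 2.08% and 5.66%. The shortest genes, of up to 500 bases (436 genes), had 5.05% higher and 2.98% lower. The median log2 fold change was 0.02 above 8 kb, −0.01 at 1 to 2 kb and −0.02 up to 500 bases. The part of gene length in the other results was not tested.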
